A study of Mus musculus with 6 samples.

Results

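The Polo-like kinases were measured by 7 probe sets for 4 of 18193 measured genes, taken as every probe set annotated to exactly 1 of Plk1, Plk2, Plk3 and Plk4 among the 45037 probe sets of the series. Plk1 had 1 probe set, Plk4 had 3, Plk2 had 2 and Plk3 had 1. The family was chosen for its differences between low and normal sodium in these same arrays, so those differences are described here and not tested. RAW264.7 cells, an established line of mouse monocytes and macrophages used as osteoclast precursors, were kept for 24 hours in low-sodium medium (120 mmol/l, 3 arrays) or in normal-sodium medium (137 mmol/l, 3 arrays). Low-sodium medium was diluted normal medium with mannitol added to hold the osmolality at 290 mOsm/l. The labels name RANKL (30 ng/ml) and M-CSF (10 ng/ml) in a wording that leaves unclear whether both media held them, and they state 4 biological replicates per group, while 3 per group were analysed here. Both groups are the same cell line, and the p-values below measure the spread between these cultures. Where a fit holds a term for replicate 3, the shift common to the replicate 3 arrays is left out of that spread.

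Polo-like kinases are serine/threonine kinases that recognise their targets through a C-terminal polo-box region. Plk1 drives mitotic entry, spindle assembly, chromosome segregation and cytokinesis, and Plk4 starts centriole duplication, so both belong to dividing cells. Plk2 and Plk3 were first known as immediate early genes induced by serum, and both respond to DNA damage and other stresses. RAW264.7 cells divide continuously, and osteoclast precursors leave the cell cycle as they mature.

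The promoter windows of the 4 genes are shown because the kinases did not move together. Each holds 250 bases before and 50 bases after the transcription start in the RefSeq annotation of GRCm38.p6, written on the gene's own strand, and capitals mark matches to CCAAT, to the cell cycle element CHR (TTTGAA) and to the cAMP response element CRE (TGACGTCA). The windows lie at chr7:122159185-122159484 (plus strand) for Plk1, chr3:40799701-40800000 (plus strand) for Plk4, chr13:110394794-110395093 (plus strand) for Plk2 and chr4:117133914-117134213 (minus strand) for Plk3.
Plk1: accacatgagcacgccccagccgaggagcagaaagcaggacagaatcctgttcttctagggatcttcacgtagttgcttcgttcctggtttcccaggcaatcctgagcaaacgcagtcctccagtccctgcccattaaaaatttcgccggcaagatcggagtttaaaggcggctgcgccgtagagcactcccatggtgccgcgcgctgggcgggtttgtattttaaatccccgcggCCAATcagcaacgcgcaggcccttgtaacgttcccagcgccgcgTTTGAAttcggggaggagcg
Plk4: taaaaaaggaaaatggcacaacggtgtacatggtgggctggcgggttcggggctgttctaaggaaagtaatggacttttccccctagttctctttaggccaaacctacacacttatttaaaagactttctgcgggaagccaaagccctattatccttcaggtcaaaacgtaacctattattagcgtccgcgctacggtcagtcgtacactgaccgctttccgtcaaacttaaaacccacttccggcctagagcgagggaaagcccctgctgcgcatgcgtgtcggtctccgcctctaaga
Plk2: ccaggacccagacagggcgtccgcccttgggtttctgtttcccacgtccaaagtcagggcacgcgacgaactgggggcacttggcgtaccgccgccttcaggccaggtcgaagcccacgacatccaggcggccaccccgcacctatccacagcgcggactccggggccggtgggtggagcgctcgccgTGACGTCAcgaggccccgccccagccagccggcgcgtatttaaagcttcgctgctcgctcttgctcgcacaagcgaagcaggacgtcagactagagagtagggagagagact
Plk3: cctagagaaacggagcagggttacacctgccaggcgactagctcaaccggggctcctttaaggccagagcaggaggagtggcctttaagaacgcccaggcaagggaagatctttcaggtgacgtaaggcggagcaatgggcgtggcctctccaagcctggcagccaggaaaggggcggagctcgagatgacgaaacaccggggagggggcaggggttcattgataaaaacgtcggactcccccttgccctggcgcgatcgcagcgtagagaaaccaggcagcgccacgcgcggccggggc
The Plk1 window held 1 CCAAT box, at positions -14 to -10 from the start, and 1 CHR, at positions 31 to 36. CHR is the element through which the DREAM and MuvB complexes time late cell cycle genes. Neither CCAAT nor TTTGAA, the only spelling of CHR searched, was found in the windows of Plk4, Plk2 or Plk3. The Plk2 window held 1 full CRE, a palindrome, at positions -62 to -55, and the other 3 windows held none. On both strands, 37.4% of the 32851 windows in the table held CCAAT, 17.9% held TTTGAA and 1.79% held TGACGTCA. The CRE half-site TGACG, which overlaps the full element, occurred at 3 places in Plk2, 2 in Plk3, 1 in Plk4 and 0 in Plk1, and in 20.8% of all windows. No match was found in any of the 4 windows for E2F (TTTGGCGC or TTTCGCGC, 0.813% of all windows), AP-1 (TGANTCA, 7.81%), TATAAA (13.6%), the p53 half-site (8.36%) or the CArG box (1.63%). These letters were matched in short windows, and a match or its absence says nothing about binding.

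In both media the array of replicate 3 differed from the other 2 in its controls. Spiked Bacillus transcripts averaged a log2 intensity of 8.52 on them and 10.34 on the arrays of replicates 1 and 2, while hybridisation controls averaged 12.18 and 12.11. The median intensity was 47.7 to 74.2 on the low-sodium arrays and 55.9 to 69.9 on the normal-sodium arrays, and each array's mean between the 2nd and 98th percentiles was 500.003. All 10 macrophage markers were above the array median on all 6 arrays, with summed intensities of 137795 to 157846 in low sodium and 129262 to 140511 in normal sodium. Of 8 measured lymphocyte markers 1 (Pax5) and of 8 measured mesenchymal markers 2 (Col1a2 and Sp7) were above it on every array. Summed intensities of 10 osteoclast markers were 7226 to 8515 in low sodium and 2439 to 3107 in normal sodium. Of the 10, only Atp6v0d2, at 6156 on low-sodium replicate 3, was higher without overlap between the groups, and 0 were lower. The part of these markers in the differences below was not tested. In bulk RNA, fewer cells expressing a gene and less RNA per cell cannot be told apart.

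Plk1, the mitotic kinase, was lower in low sodium on every array. Its intensities were 1383, 1441 and 1499.7 in low sodium, against 2604, 2523 and 2672 in normal sodium, listed by replicate number 1, 2 and 3. The groups did not overlap, and the lowest normal-sodium array was well above the highest low-sodium array. On the log2(intensity + 1) scale, which is used for every difference below, Plk1 averaged 10.49 ± 0.06 in low sodium and 11.34 ± 0.04 in normal sodium (SD, n = 3 each), a difference of -0.85, or 1.80-fold lower. The differences within replicate numbers 1, 2 and 3 were -0.91, -0.81 and -0.83, with an SD of 0.05, which was the smallest among the 7 probe sets. Plk1 was thus as far below its normal-sodium level in replicate 3 as in the other cultures.

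Plk4, the kinase of centriole duplication, was lower by all 3 of its probe sets. Its brightest probe set had 1432, 1252 and 1039 in low sodium, against 1749, 1886 and 1871 in normal sodium. The middle probe set had 997, 1045 and 899.7 in low sodium, against 1648, 1650.2 and 1366 in normal sodium. The dimmest probe set had 428, 314 and 246 in low sodium, against 560.0, 585 and 542 in normal sodium. In none of the 3 did the groups overlap. The differences were -0.58, -0.66 and -0.81 in that order, and all 9 differences within a replicate number were below 0. The 3 probe sets report on 1 gene and are not separate evidence.

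The Plk4 probe sets, read on the same arrays, were not alike in how their difference varied between replicate numbers. By the middle probe set the difference was -0.72, -0.66 and -0.60 in replicates 1, 2 and 3, a spread (SD 0.06) close to that of Plk1. By the brightest it was -0.29, -0.59 and -0.85 and by the dimmest -0.39, -0.90 and -1.14, with SDs of 0.28 and 0.38, and both were nearest to 0 in replicate 1. Over the 6 arrays the brightest and the dimmest correlated with each other at r = 0.99, and the middle one correlated with them at 0.90 and 0.89. The r of the middle probe set with Plk1 was 0.92. These correlations rest on 6 arrays that share the split by medium and are given as a description.

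Plk2, a stress-induced kinase that also acts on synapses and centrioles, was higher in low sodium on every array by the brighter of its 2 probe sets. The intensities were 4882, 5323 and 5209 in low sodium, against 1603, 1285 and 752 in normal sodium. The groups did not overlap, and the low-sodium arrays lay close together while the normal-sodium arrays were spread out, with replicate 3 the lowest. The means were 12.33 ± 0.06 in low sodium and 10.18 ± 0.56 in normal sodium (SD, n = 3 each), a difference of 2.15, or 4.43-fold higher. Within replicates 1, 2 and 3 the difference was 1.61, 2.05 and 2.79, so its size differed between the cultures much more than that of Plk1 (SD 0.60 against 0.05). Without normal-sodium replicate 3 it was 1.84.

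The dim Plk2 probe set was below the array median on all 6 arrays. It had 6.02, 37.5 and 30.05 in low sodium, against 6.96, 12.7 and 23.5 in normal sodium. The groups overlapped, and the difference of 0.55 changed sign between replicates, at -0.18, 1.49 and 0.34. With 16 added before the logarithm in place of 1 it was 0.35, and no direction is read from so dim a signal.

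Plk3, the other stress-induced member, did not share the pattern of Plk2. It had 208, 147 and 168 in low sodium, against 191, 165 and 6.27 in normal sodium. The groups overlapped, and 5 of the 6 arrays lay between 147 and 208, with only normal-sodium replicate 3 far below. The mean difference of 1.499 rests on that 1 array: the differences were 0.12 and -0.16 in replicates 1 and 2 and 4.54 in replicate 3, and without normal-sodium replicate 3 the mean difference was -0.039. With 16 added before the logarithm in place of 1 the mean difference was 1.004, so its size also depends on how the dim value of that array is treated. A drop of at least 3 on the log2 scale below the other 5 arrays was seen in 49 of the 45037 probe sets for normal-sodium replicate 3 and in 169 for low-sodium replicate 3, against 4 to 10 for each array of replicates 1 and 2 (a limit chosen after the values were seen). Many of these were dim. Among probe sets with a mean at or above the median, as Plk3 had, the counts were 8 and 28. For each array of replicates 1 and 2 that count was 0. The opposite responses in the kinases were therefore those of Plk1 and Plk4 against Plk2, and Plk3 stood on neither side in replicates 1 and 2.

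**Figure D1:**
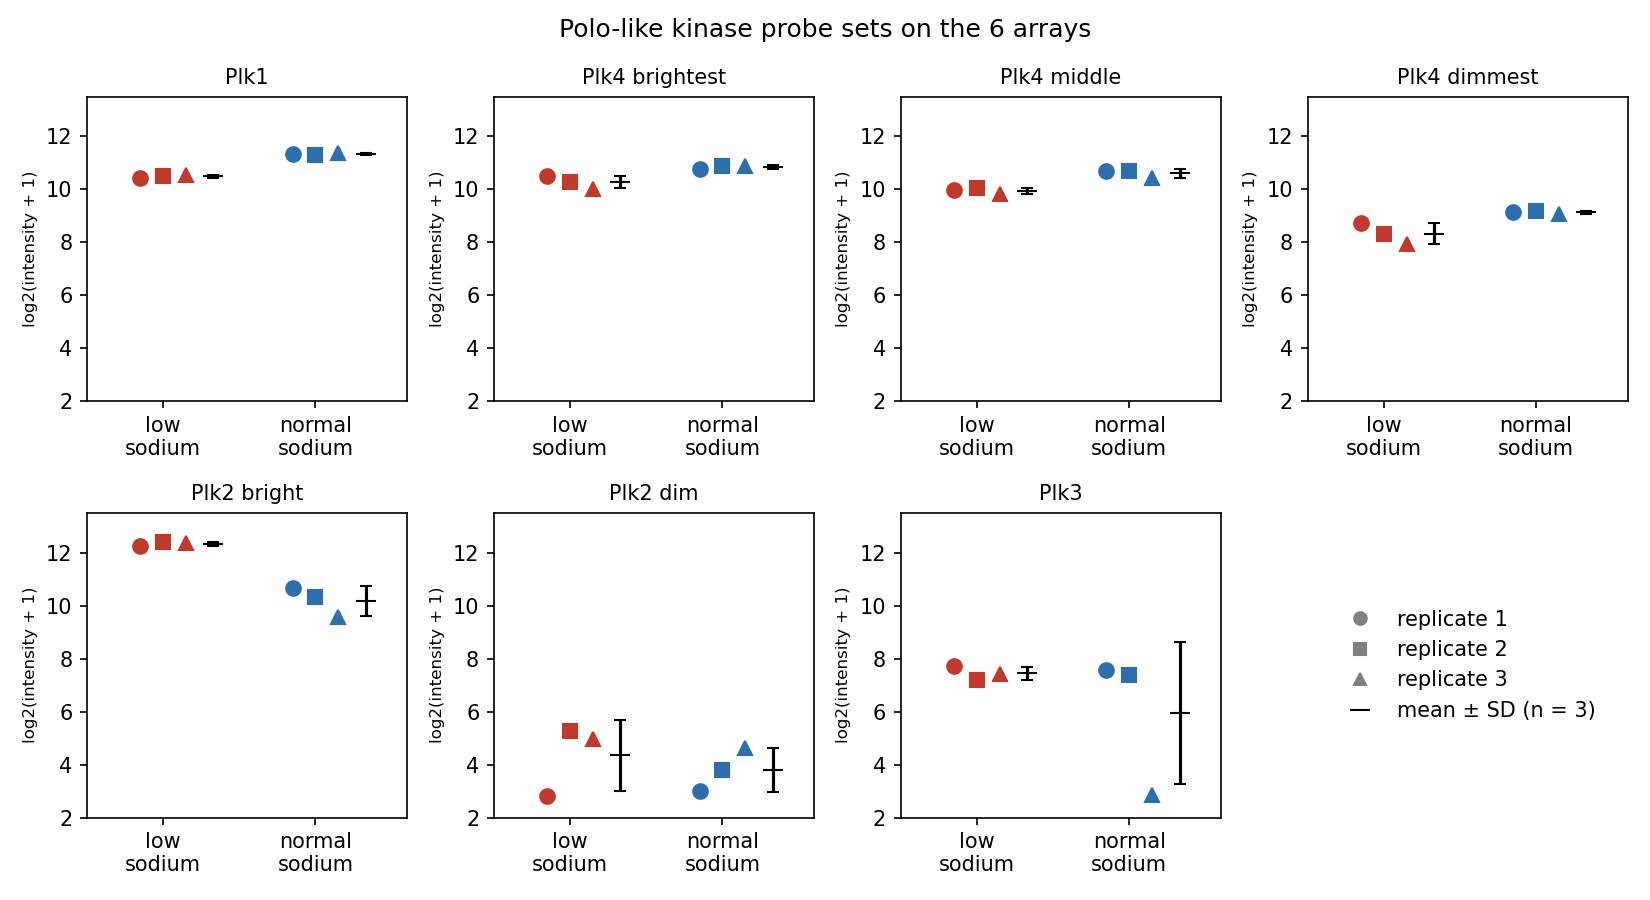
Log2(intensity + 1) of each Polo-like kinase probe set on the y axis, for the 3 low-sodium arrays (red) and the 3 normal-sodium arrays (blue). Symbols give the replicate number and the black mark the mean ± SD (n = 3). Plk1 and the 3 Plk4 probe sets lie lower in low sodium, the bright Plk2 probe set lies higher, and Plk3 is set apart by normal-sodium replicate 3 alone.

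Of the 7 probe sets, 4 were lower in low sodium with no overlap between the groups, 1 was higher and 2 overlapped. Over all probe sets 7.88% were lower and 6.97% higher in this way, and since this contrast chose the family nothing is read from its share. The difference between the kinases was taken within each replicate number, where any scaling of a whole array cancels. The Plk2 difference exceeded that of Plk1 by 2.52, 2.86 and 3.62 in replicates 1, 2 and 3 (mean 3.00 ± 0.57, SD, n = 3), so that the Plk2 to Plk1 intensity ratio was 7.998-fold higher in low sodium. Against Plk4 (brightest probe set) Plk2 moved apart by 1.89, 2.64 and 3.64. The Plk3 difference exceeded that of Plk1 by 1.04, 0.64 and 5.37, so Plk3 lay above Plk1 in each replicate number, with Plk3 near 0 in replicates 1 and 2. Between Plk4 (brightest probe set) and Plk1 the gaps were 0.62, 0.22 and -0.01, changing sign.

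**Figure D2:**
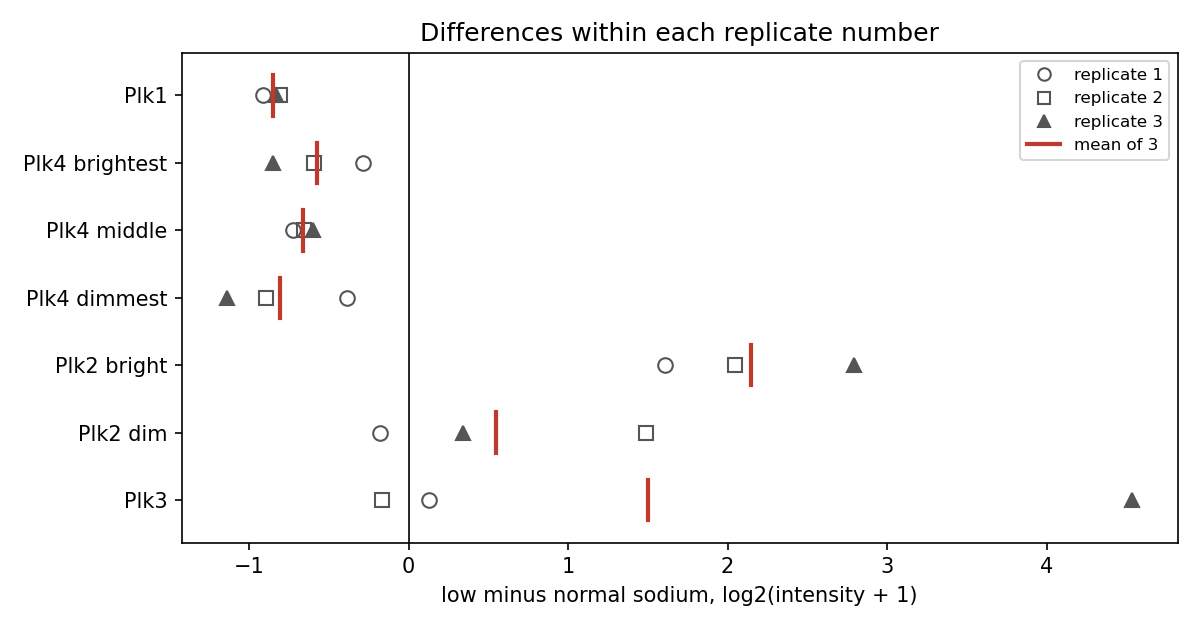
Low minus normal sodium in log2(intensity + 1) on the x axis, for each probe set and replicate number, with the mean of 3 as a red bar. The points of Plk1 lie between -0.91 and -0.81, those of the bright Plk2 probe set between 1.61 and 2.79, and those of Plk3 at -0.16, 0.12 and 4.54.

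The level of each kinase in the replicate 3 cultures against replicates 1 and 2 was not used in choosing the family and was tested with limma with the medium as a covariate. Of all probe sets 0% were called higher and 0% lower (10995 of 45037 had an unadjusted p under 0.05), and 0 of the 7 kinase probe sets passed (adjusted p = 0.283 to 0.771). The shift was 0.07 ± 0.13 in Plk1 (SE), -0.45 ± 0.28 in the bright Plk2 probe set and -2.34 ± 1.12 in Plk3. The Plk3 shift rests on normal-sodium replicate 3, without which it was -0.058. For the Plk4 probe sets it was -0.33 to -0.16. With each array centred on its median the shift turned to 0.13 to 0.29 in Plk4 and to 0.0014 in Plk2. In Plk1 it was then 0.53, and none of these passed. The design holds 2 arrays of replicate 3, and a shift within these errors was not detectable. The fit above used a constant prior. With a trended prior 6796 of all probe sets were called, and still no kinase probe set passed.

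The other genes of the kinases' pathways were counted over 18193 genes, each represented by its brightest probe set. By the limma test with no further term 1 gene rose, the ERK phosphatase gene Dusp5 (adjusted p = 0.0468, 0.0055% of all genes), 0 fell, and 1483 had an unadjusted p under 0.05. With the replicate number as a block 0 genes passed. The verbs below refer to a second limma fit with a term for replicate 3 and a trended prior, chosen in earlier work on these arrays with its counts in view, in which 3.78% of all genes rose and 3.81% fell. Its calls therefore carry less weight than those of a fit set in advance. The term also takes the shift shared by the replicate 3 arrays out of the spread, so the calls do not hold against all variation between cultures. Groups that did not overlap are counted beside them, at 8.44% of genes higher and 9.07% lower. The median difference over all genes was -0.01.

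Genes whose products activate or dock Plk1 fell in 12 of 14 and rose in 0, and 11 were lower with no overlap (median -0.61). Bub1b, a checkpoint kinase-like protein that Plk1 phosphorylates and binds at kinetochores, had 1761, 1910 and 1843 in low sodium, against 3416, 3718 and 4046 in normal sodium, and fell by 1.02 on the log2 scale (SE 0.08, adjusted p = 0.00108). Aurka, the kinase that activates Plk1, had a difference of -0.83 ± 0.07 and Bora, its cofactor in that step, one of -0.61. Ccna2, a cyclin of S and G2 phase, fell by 0.74 and the spindle factor Tpx2, an activator of Aurora A, by 0.70. Cenpu, a kinetochore docking protein of Plk1, had a difference of -0.44 without passing. All 14 were lower in low sodium in each of the 3 replicate numbers, as Plk1 itself was. The share of all genes lower in this way is not given here, so nothing is read from that count.

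Plk1 substrates fell in 12 of 20 and rose in 0, with 12 lower and 1 higher without overlap (median -0.54). Cdc20, the activator of the anaphase-promoting complex, fell by 0.80 ± 0.06 on the log2 scale, the microtubule depolymerase gene Kif2c by 0.73 and the centralspindlin gene Racgap1 by 0.75. Cep55, which acts at the midbody in abscission, had a difference of -0.71. Those that did not pass included Stag2, a cohesin subunit gene, at 0.23 and Nek9, a mitotic kinase gene, at 0.29. Cdc25c, the phosphatase that switches on CDK1, fell by 0.71, and Wee1, the kinase that holds CDK1 off, fell by 0.48, so opposing regulators of mitotic entry fell together.

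Genes transcribed in late G2 and M phase fell in 28 of 29 and rose in 0, and 27 were lower and 0 higher with no overlap, with a median of -0.76 and a range of -1.06 to -0.45. The difference of Plk1, at -0.85, lay inside this range. Cks2, a CDK1 subunit gene, fell by 0.95, Aurkb by 0.93 and Ccnb2 by 0.85. The 1 that did not pass was Ckap2, at -0.54. This list shares 8 genes with the Plk1 activators and 2 with the substrates, so their counts overlap.

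Centriole duplication genes, the surroundings of Plk4, fell in 4 of 21 and rose in 0, with 9 lower and 0 higher without overlap (median -0.31). Stil, a partner that Plk4 phosphorylates to recruit the cartwheel protein, fell by 0.70 ± 0.14, and its low-sodium values of 464, 540 and 272 stood against 742, 713 and 549 in normal sodium. Pcnt, the pericentrin gene, fell by 0.74 with groups that overlapped, Cep57 by 0.66 and Odf2 by 0.49. The scaffold genes that bring Plk4 to the centriole did not pass, with Cep192 at -0.31 and Cep152 at -0.23, nor did Sass6, the cartwheel gene, at -0.54. Genes of the G1 to S transition fell in 8 of 29 and rose in 0, with 12 lower and 1 higher (Pcna, at 0.13) without overlap (median -0.53, with -0.29 in replicates 1 and 2 and -0.89 in replicate 3). The thymidine kinase gene Tk1 fell by 0.99, the ribonucleotide reductase gene Rrm1 by 0.62, Gins1 by 0.58 and Rfc4 by 0.53.

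Around Plk2 and Plk3 the genes were less alike. Of 13 measured substrate and partner genes 2 fell and 0 rose (median -0.23), with 2 lower and 1 higher (Hif1a, at 0.43 without passing) without overlap. The 2 that fell, the topoisomerase gene Top2a at -0.73 and the kinase gene Vrk1 at -0.42, belong to dividing cells. Ccne1 and Chek2 had differences of -0.37 and -0.34 without passing. Of 21 p53 targets other than the kinases 3 rose and 0 fell, with 5 higher and 1 lower without overlap (median 0.39, with 0.10 in replicates 1 and 2 and 0.63 in replicate 3). Cdkn1a, the gene of the CDK inhibitor p21, had 8850 (replicate 1), 9126 and 13390 in low sodium, against 6906, 6383 and 6784 in normal sodium, and rose by 0.62 ± 0.11. Trp53inp1 rose by 0.83 and Gadd45a by 1.16, although the groups overlapped in both. Rrm2b had a difference of 0.52 and Btg2, also an immediate early gene, one of -0.82, without passing.

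Immediate early genes rose in 12 of 25 and fell in 0, with 11 higher and 1 lower without overlap (median 0.63, with 0.49 in replicates 1 and 2 and 0.59 in replicate 3). Dusp5 had 339, 337 and 375 in low sodium, against 34.04, 29.4 and 37.6 in normal sodium, and rose by 3.35 ± 0.24. Myc rose by 2.01, with 482, 494 and 136 in low sodium against 117, 90.8 and 45.4 in normal sodium. Klf2 rose by 0.86 and Zfp36, whose product promotes decay of cytokine mRNA, by 0.66. The Plk2 difference of 2.15 lay within the wide range of this list (-0.82 to 3.35), but near its top. Only Dusp5 had a larger difference, and Myc, at 2.01, came next below Plk2. The Plk2 probe set was lowest on normal-sodium replicate 3, as Myc was, but Myc was also lowest in low-sodium replicate 3, where Plk2 was not.

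**Figure D3:**
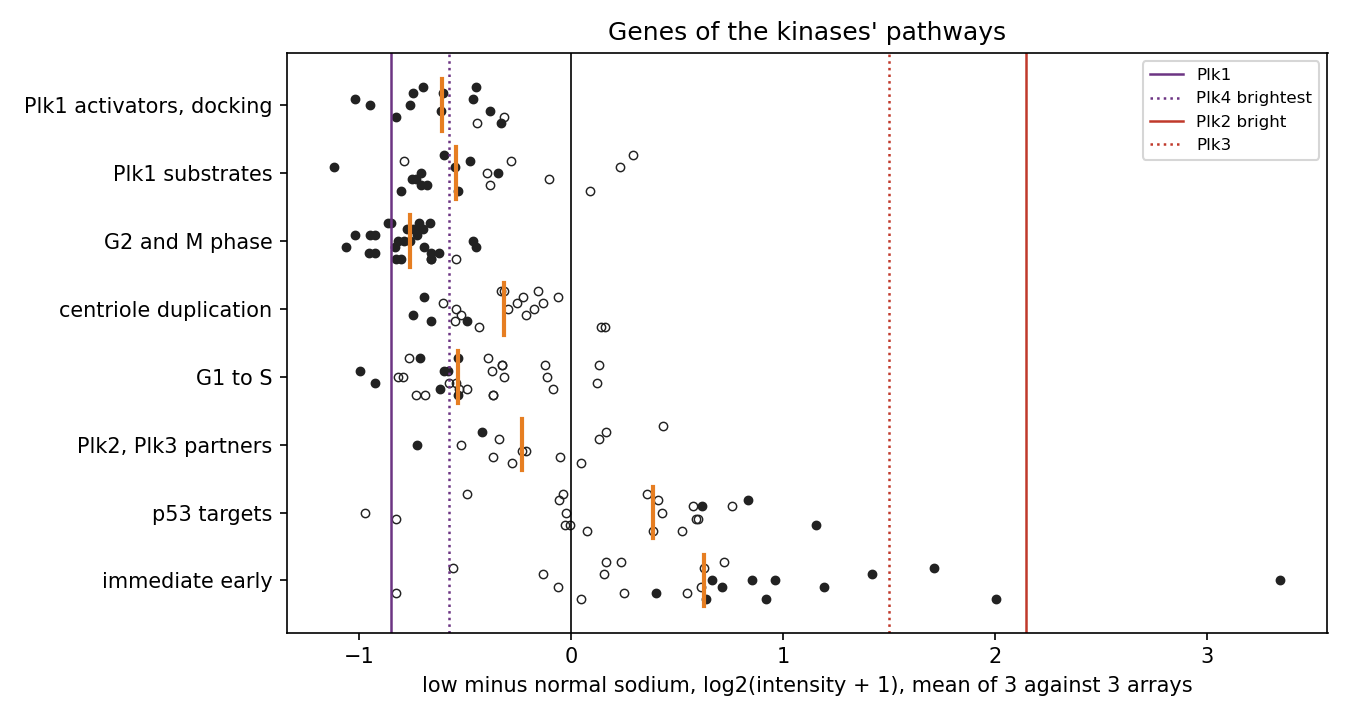
Low minus normal sodium in log2(intensity + 1) on the x axis, for each measured gene of 8 lists, with the list median in orange. Filled points passed the fit with the replicate 3 term, open points did not, and vertical lines give the brightest probe set of each kinase. Plk1 lies among the G2 and M phase genes, with a list median of -0.76, and Plk2 at 2.15 lies right of the immediate early median of 0.63.

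The counts moved with the arrays used. The share of all genes called under these settings is not given here. Whether a moved count concerns a list or the total number called therefore cannot be told. With replicates 1 and 2 alone the Plk1 activators fell in 13, the substrates in 13, the G2 and M phase genes in 29, the centriole genes in 8 and the G1 to S genes in 18, while 16 immediate early genes and 5 p53 targets rose and 1 p53 target fell. Without low-sodium replicate 2 the counts that fell were 6, 6, 23, 1 and 3 in the same order, with 5 immediate early genes and 0 p53 targets higher. Without normal-sodium replicate 2 they were 6, 5, 23, 0 and 2, with 6 and 0 higher. Without low-sodium replicate 1 they were 6, 7, 23, 0 and 2, with 7 and 1 higher, and without normal-sodium replicate 1 they were 7, 8, 25, 0 and 4, with 7 and 1 higher. With 1 array of replicate 3 left out, of either medium, the replicate 3 term fits the remaining one exactly. The differences then rest on replicates 1 and 2 alone, so these settings are no separate check. Their counts that fell were 13, 13, 29, 8 and 17, with 16 immediate early and 6 p53 targets higher and 1 p53 target lower. The count of Plk2 and Plk3 partners that fell was 3 with 1 array of replicate 3 left out and 1 without any one of the other 4 arrays. Osteoclast markers rose in 5 of 10 with all arrays, in 2 without low-sodium replicate 1 or 2 and in 3 without normal-sodium replicate 1 or 2, and macrophage markers in 2 of 10 with all arrays and in 5 with 1 array of replicate 3 left out. Of the 8 gene lists of the kinases' pathways, the G2 and M phase list was the 1 whose count stayed within 1.5 times its value over these settings. This describes raw counts only, without the share of all genes beside them.

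The genes whose values followed each kinase most closely were sought among 10401 genes at or above the median brightness, by Pearson's r over the 6 arrays. For Plk1 they were Sf3a1, Pimreg, Fasn, Dram1 and Cep55 (r = 0.995 to 0.997), of which Cep55 is in the list of Plk1 substrates and Pimreg in that of G2 and M phase genes. For Plk4 (brightest probe set) they were Agpat5, Polr3k, Fastkd5, Psip1 and Dek (0.989 to 0.997). For Plk2 (bright probe set) they were Dgkd, Ttc7b, Nckap1, Myo1e and Zfand2a (0.996 to 0.999), all higher in low sodium and lowest on normal-sodium replicate 3. Nckap1, a subunit gene of the WAVE actin regulator, was the nearest of these in size, with differences of 1.13, 1.45 and 2.15 in replicates 1, 2 and 3. For Plk3 they were Extl1, Adcy3, Mgat4b, Adgrl2 and Arv1 (0.993 to 0.999), which like Plk3 had their lowest value on normal-sodium replicate 3. The size of that drop differed. Adcy3 had 6.90 there against 92.3 to 116 on the other 5 arrays, and the bright Mgat4b 3546 against 4334 to 4439. With 6 arrays and so many genes searched, such values describe these arrays only.

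**Figure D4:**
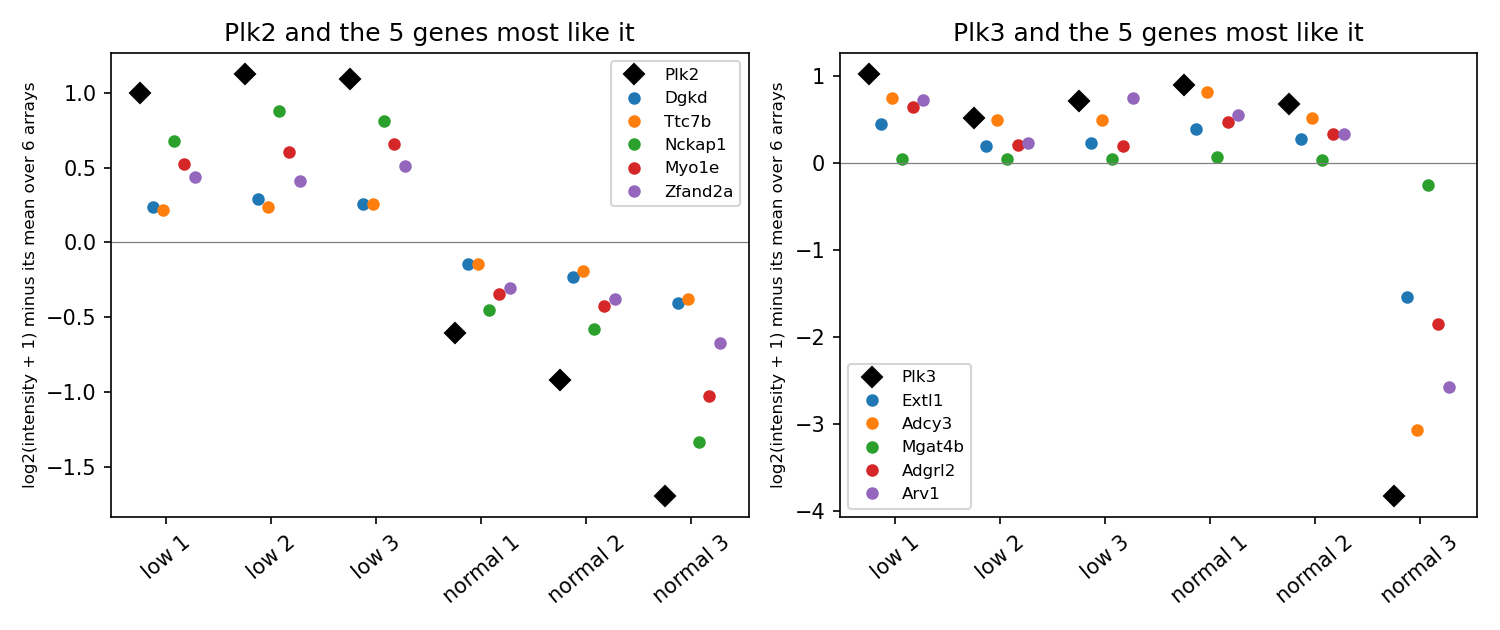
Log2(intensity + 1) minus its mean over the 6 arrays on the y axis, for each array on the x axis, for Plk2 (left, diamonds) and Plk3 (right, diamonds) with the 5 genes most like each. The Plk2 group lies above 0 on the 3 low-sodium arrays and below 0 on the 3 normal-sodium arrays, whereas the Plk3 group lies below 0 on normal-sodium replicate 3 alone.

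Plk5, the remaining member of the family, which lacks kinase activity in humans and is known mainly from the brain, was outside the choice. It had 108, 59.5 and 60.9 in low sodium, against 18.9, 68.4 and 71.7 in normal sodium. The groups overlapped, its difference of 0.67 came from replicate 1 (2.46, against -0.20 and -0.23 in replicates 2 and 3), and it did not pass (adjusted p = 0.581 in the fit with the replicate 3 term, limma).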

How the data were processed

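Biotin-labelled RNA of 6 cultures was measured on Affymetrix mouse arrays, per the labels' protocols. Each deposited value was a linear intensity of 1 probe set on 1 array. The submitters' processing notes name Partek, but its role, the way probes were summarised and the genome build are not given in the sources used here. Precision is limited by the number of arrays.

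The log2 of each intensity plus 1 was analysed, and 64 control probe sets were left out. Of 45037 probe sets 34945 carried 1 gene, 932 several and 9160 none in the platform annotation, and only the first were named. Of the first, 34741 were matched by gene identifier to the RefSeq table of GRCm38.p6 and took its symbols. The members, the 13 gene lists and the fit with the replicate 3 term were chosen with earlier results of these data known. Of 222 list entries 209 matched a measured gene. limma 3.58.1 in R 4.3.3 gave two-sided tests with Benjamini-Hochberg adjustment at an adjusted p under 0.05, first with no further term and a constant prior. Named genes were all members, up to 4 genes of each list with the smallest p in the fit with the replicate 3 term, and the 5 genes most like each kinase. Further list genes were named after their values had been seen. Lists of cell type markers gave no call in lymphocyte or mesenchymal markers, while 2 of 10 macrophage markers (Adgre1 and Fcgr3) and 5 of 10 osteoclast markers rose. Deviations from the group means correlated at 0.08, 0.06 and 0.20 between arrays of the same replicate number 1, 2 and 3 over all probe sets, and at 0.35, 0.33 and 0.51 over the brighter 50%. Low-sodium replicate 1 correlated with normal-sodium replicate 2 at 0.08 over all probe sets, as with its own number. Whether the numbers mark paired cultures is not settled by these values or the labels, so tests were run without the block, with the block as an alternative.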

Additional observations from a re-analysis of the deposited data

How the results depend on the processing

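Differences of Plk1, Plk4 and Plk2 (bright probe set) between low and normal sodium kept their sign under every setting tried: 16 added in place of 1, quantile normalisation, centring on array medians, the replicate number as a block, replicates 1 and 2 alone, replicate 3 alone and leaving out each array. Plk3 did not, at -0.020 within replicates 1 and 2, 4.54 within replicate 3 and -0.039 without normal-sodium replicate 3. Within replicate 3 the Plk2 difference was 2.79 and its excess over that of Plk1 was 3.62. Leaving out each array gave -0.88 to -0.82 for Plk1, -0.68 to -0.45 for Plk4 (brightest probe set), 1.84 to 2.38 for Plk2, -0.039 to 2.32 for Plk3 and 2.67 to 3.23 for the excess of Plk2 over Plk1. The 1 gene called between the media became 4 with 16 added, 0 with quantile normalisation, 0 with medians centred, 11 among the brighter 50% of probe sets, 2 with the replicate 3 term, 40 with a trended prior, 1382 with both, and 0 to 3 without each array. With the replicate block it was 0, and the mean differences of the kinases are the same by construction. The shift of replicate 3 was called in 0 probe sets, in 1223 with 16 added, in 6796 with a trended prior, in 6228 among the brighter 50% and in 0 without each array, and no kinase probe set passed in any of them. With medians centred that shift turned to 0.29, 0.23 and 0.13 in the Plk4 probe sets and 0.0014 in Plk2, and was 0.53 in Plk1. Leaving out each array gave 0.059 to 0.087 in Plk1. For Plk4 (brightest probe set) this gave -0.37 to 0.042, above 0 without low-sodium replicate 3. In Plk2 it gave -0.93 to 0.031, above 0 without normal-sodium replicate 3. In Plk3 it gave -4.62 to -0.058, nearest to 0 without normal-sodium replicate 3. The causes were not tested. Dim signals, as of the dim Plk2 probe set and of Plk3 on normal-sodium replicate 3, limit what can be read there.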
